A study of Mus musculus with 2 samples.

Results

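Among CD45-positive cells sorted from MC38 tumors, 52 of 9911 kept cells were selected on transcripts of conventional type 1 dendritic cells (cDC1). They were chosen by their unique molecular identifier (UMI) counts: a UMI for at least 3 of the genes *Xcr1*, *Clec9a*, *Flt3*, *Itgae* and *Btla*, fewer than 2 *Ccr7* UMIs, and fewer than 2 UMIs over the CD3 genes. Of the 52 cells, 29 came from the 5078 kept control cells and 23 from the 4833 kept telmisartan cells. All 52 passed the limits on genes and mitochondrial UMIs, and no control or telmisartan cell that met the marker rule was lost to them. The *Ccr7* limit left out 5 control and 7 telmisartan cells, and the CD3 limit left out 1 control cell.

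C57BL/6 female mice, 6 to 8 weeks old, carried subcutaneous tumors of MC38, a colon adenocarcinoma line. From implantation they received telmisartan, an angiotensin receptor blocker, at 5 mg/kg by gavage each day, or vehicle. Tumors were taken on day 13. The CD45-positive cells isolated from those of 5 mice were pooled per group, so there was 1 pool per group and no replicate. Live CD45-positive cells of both pools were marked with Sample Tags (1 for control, 2 for telmisartan) and profiled together in 1 BD Rhapsody capture.

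cDC1 take up material from dying cells and load its peptides onto MHC class I, the route called cross-presentation, by which they prime CD8 T cells. The lineage depends on the transcription factors IRF8, BATF3, ID2 and NFIL3 and on the growth factor FLT3 ligand. Tumor cDC1 are rare, and are known as a source of the chemokines that draw T cells and of interleukin 12. The comparison asked how these cells differed between tumors of treated and control mice.

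The selected cells held 299844 UMIs in the control pool and 260926 in the telmisartan pool. The median cell had 9975 UMIs (3283 to 21127) in control and 11434 (4069 to 20645) in telmisartan. It had 3031 and 3275 genes detected, and 5.64% and 5.001% of its UMIs were mitochondrial. The selected cells of the telmisartan pool were thus the deeper ones, although over all kept cells the median was 9055 UMIs in control and 6584 in telmisartan. Every bracketed range below is a 95% interval that covers counting error only, not differences between mice or, for UMI counts, between cells. A log2 ratio is telmisartan over control.

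The selected cells made up 0.571% [0.383, 0.819] of kept cells in control and 0.476% [0.302, 0.713] in telmisartan. The log2 ratio was -0.26 [-1.12, 0.58], so a difference in share was not detectable at this depth. It was -0.96 when cells needed 90% of tag reads on 1 tag, which left 19 and 9 selected cells. The sign turned with at least 3 *Irf8* UMIs required (0.76, with 13 and 21 cells) and with cells thinned to 2000 UMIs (0.23). By number of marker genes, 12 control cells had 3, 6 had 4 and 11 had all 5, against 5, 7 and 11 telmisartan cells. Cells with 4 or 5 made up 0.335% and 0.372% of kept cells, and cells with just 3 made up 0.236% and 0.103%, a log2 ratio of -1.19 [-3.05, 0.42]. The lower telmisartan count thus lay among cells that met the rule with 3 genes, within counting error.

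The 5 genes of the rule are given as a description, since they chose the cells. In CPM, a gene's share of all UMIs of the selected cells on the usual scale of counts per 1000000, *Xcr1*, the receptor for the chemokine XCL1 (chr9:123852315-123862029, GRCm38), stood at 264 in control and 203 in telmisartan, and 1 control cell held 32 of its 79 control UMIs. *Clec9a*, which senses actin exposed on dead cells (chr6:129408862-129424763), stood at 330 and 491 CPM. *Flt3*, the growth factor receptor, stood at 304 and 383. *Itgae*, which encodes CD103, stood at 397 and 471, and *Btla*, an inhibitory receptor, at 367 and 425. An *Xcr1* UMI was present in 15 of 29 control and 16 of 23 telmisartan selected cells. T cells, which should lack it, showed it in 0 of 92 and 0 of 123 cells at median depths of 7418 and 4576 UMIs. With each cell thinned to 3000 UMIs, 11 of 29 and 7 of 23 selected cells still had one, against 0 of 69 T cells (at most 5.21% of them with a UMI) and 0 of 83 (at most 4.35%). That excess was fixed by the rule and says nothing of identity.

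Read from *Irf8* alone, which the rule did not use, the label of cDC1 held for some of the control cells and for nearly all of the telmisartan cells. Other genes did not always go with *Irf8*. A telmisartan cell with 13 *Irf8* UMIs had no UMI of *Naaa*, *Wdfy4* or *Ifi205*. A control cell with 1 *Irf8* UMI had all 5 marker genes, 27 *Naaa* and 14 *Wdfy4* UMIs. *Irf8* was also common in dendritic cells with at least 2 *Ccr7* UMIs, so by itself it does not tell cDC1 from those. *Irf8*, the factor that sets cDC1 identity (chr8:120736358-120756694), reached 3 UMIs in 13 of 29 control cells (44.8% [26.5, 64.3]) and in 21 of 23 telmisartan cells (91.3% [72.0, 98.9]). Fewer than 3 *Irf8* UMIs together with 3 or more of *Mgl2*, a lectin of other dendritic cells and of macrophages (chr11:70130329-70137550), were found in 13 control and 2 telmisartan cells. *Mgl2* itself was lower in the telmisartan pool in other cells too, at 450 and 185 CPM in macrophage cells and 241 and 49.1 in T cells, and what that adds to the 13 against 2 was not tested. The data of those cells went against the label, and the 52 are therefore called marker-selected cells below. List sums and the genes that results rest on are also given for the cells with an *Xcr1* UMI alone, a split made after the data were seen.

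**Figure D1:**
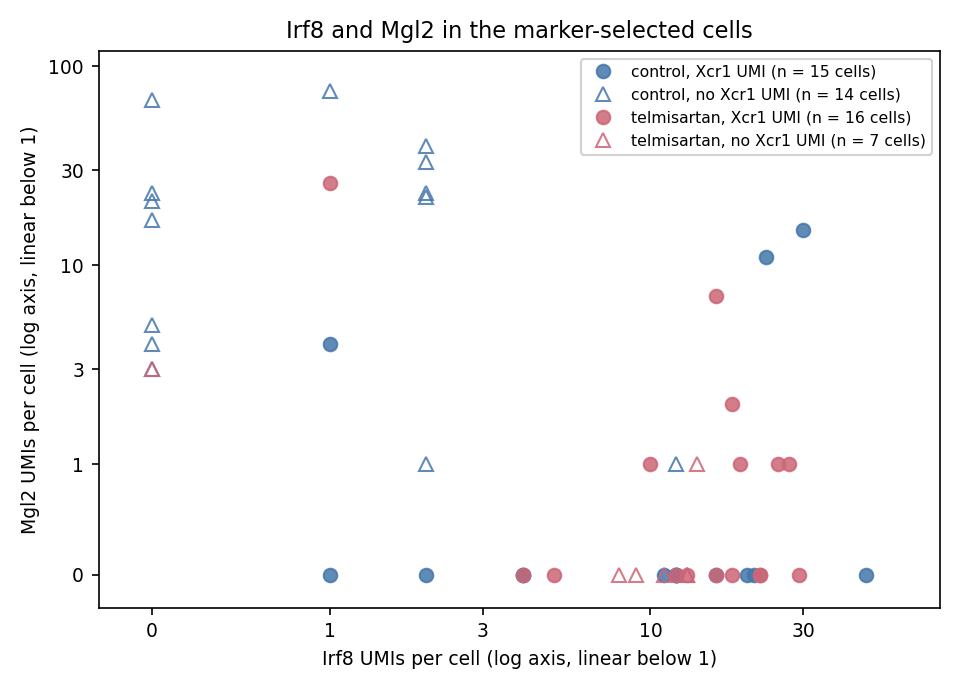
*Irf8* UMIs (x axis) against *Mgl2* UMIs (y axis) in each of the 52 marker-selected cells, on log axes that are linear below 1, colored by pool; filled circles have an *Xcr1* UMI (15 control, 16 telmisartan) and open triangles have none (14 and 7). Cells with under 3 *Irf8* and at least 3 *Mgl2* UMIs numbered 13 in control and 2 in telmisartan.

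The split fell along *Xcr1* in the control pool. Of its 14 *Xcr1*-negative cells, 13 had fewer than 3 *Irf8* UMIs, and 12 of those also had at least 3 of *Mgl2*. *Irf8* stood at 153 CPM in these 14 cells and at 1442 in the 15 *Xcr1*-positive control cells, while *Mgl2* stood at 2240 and 200. In the telmisartan pool, 6 of 7 *Xcr1*-negative cells had at least 3 *Irf8* and fewer than 3 *Mgl2* UMIs, with *Irf8* at 986 CPM and *Mgl2* at 58.0. The *Xcr1*-negative cells of the pools thus differed in both genes. As shares of kept cells, *Xcr1*-positive cells made up 0.295% and 0.331% (log2 ratio 0.16 [-0.95, 1.28]), and *Xcr1*-negative cells 0.276% and 0.145% (-0.93 [-2.48, 0.48]).

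Around the threshold of 3 marker genes, cells with 4 or 5 of them had higher *Irf8* and lower *Mgl2* than cells with 2 or 3, in both pools. In control, *Irf8* stood at 182 CPM in the 38 cells with 2 marker genes, 85.5 with 3, 689 with 4 and 1550 with 5. In telmisartan it stood at 251 in the 35 cells with 2, then at 543, 1027 and 1671. *Mgl2* stood at 1730, 2403, 712 and 204 CPM in control and at 1234, 543, 25.4 and 93.3 in telmisartan. Just inside the threshold the 12 control cells therefore had little *Irf8* and the most *Mgl2*. All 12 also held a UMI of *Klrd1*, which encodes CD94, and in 5 of them the genes met were *Flt3*, *Itgae* and *Btla*.

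A single UMI of *Irf8* or *Mgl2* did not mark a cell, since T cells, which should lack *Mgl2*, held both genes. *Irf8* was found in 75.9% of control and 95.7% of telmisartan selected cells, against 45.7% and 41.5% of T cells. Thinned to 3000 UMIs, the shares were 62.1% and 91.3% in selected cells and 24.6% and 30.1% in T cells. Dendritic cells with at least 2 *Ccr7* UMIs had *Irf8* in 83.1% and 92.45% of cells, or 69.0% and 87.5% thinned. Those with at least 2 *Cd209a* UMIs had it in 40% and 35%. An *Irf8* UMI thus did not set the selected cells apart from *Ccr7* dendritic cells. *Mgl2* was found in 58.6% and 39.1% of selected cells and in 33.7% and 12.2% of T cells. Thinned, it remained in 51.7% and 13.04% of selected cells and in 26.1% and 7.23% of T cells. The thinned *Mgl2* shares thus lay above those of T cells in both pools, with overlapping intervals ([32.5, 70.55] and [16.25, 38.1] in control, [2.78, 33.6] and [2.70, 15.1] in telmisartan).

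All 16 other cDC1 markers on the list were detected, and their sum stood at 7904 CPM in control and 9144 in telmisartan selected cells (log2 ratio 0.21 [0.13, 0.29]). In macrophage cells, defined by at least 3 of 5 macrophage genes and no dendritic gene, the sum was 1613 and 1637. Among *Xcr1*-positive cells it was 11841 and 9575, a log2 ratio of -0.31, and among *Xcr1*-negative cells 3973 and 7946. The direction of the sum thus turned with the cells included. Of the 16, 1 was at least 2-fold higher and 0 lower, near the 5.2% and 6.02% found over all genes tested. It was *Ly75*, the uptake receptor DEC-205, at 63.4 and 130 CPM (1.04; 0.15 without the cell that held 30.2% of its UMIs; -0.12 among *Xcr1*-positive cells). *Batf3*, the partner of IRF8 at cDC1 enhancers, had a UMI in 8 control and 14 telmisartan cells, at 46.7 and 84.3 CPM (0.85, and 0.56 among *Xcr1*-positive cells). *Naaa*, a lysosomal amidase, stood at 1564 and 1809 CPM (0.21), and *Cadm1*, an adhesion molecule, at 133 and 119 (-0.17). Their values were -0.08 and -0.80 among *Xcr1*-positive cells. *Tlr3*, the receptor for double-stranded RNA, stood at 123 and 176 (0.51), and *Cd24a*, a surface glycoprotein, at 677 and 901 (0.41). Their values were 0.11 and -0.21 among *Xcr1*-positive cells. *Ifi205* stood at 777 and 1134 CPM (0.55, and 0.03 among *Xcr1*-positive cells), values that include an uncertain split of reads with its close paralogs. *Gcsam*, a signaling adaptor of lymphoid cells, stood at 153 and 245 CPM against 0.0521 and 0.0368 in macrophage cells. *Gcsam* stood at 300 CPM in *Xcr1*-positive and 6.67 in *Xcr1*-negative control cells, and its log2 ratio was 0.68 over all selected cells and -0.07 among *Xcr1*-positive ones. Most of these markers were thus higher in telmisartan over all selected cells, and closer to level or lower once *Xcr1*-negative cells were left out.

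Further genes that set the selected cells apart from macrophage cells were ranked without the rule genes, and 20 were named. Some were also high in other dendritic cells. *Klrd1* stood at 328 and 601 CPM in *Cd209a* dendritic cells, and *Ly75* at 463 and 314 and *Serpinb6b* at 879 and 1025 in *Ccr7* dendritic cells. Others were not, such as *Gcsam*, at 0 and 0 in the former and 19.3 and 24.0 in the latter. *Sept3*, a septin, stood at 574 and 586 CPM (0.03, and -0.47 among *Xcr1*-positive cells) against 0.547 and 0.147 in macrophage cells. *Plet1*, a surface protein of tissue dendritic cells, stood at 1528 and 1039 against 3.91 and 4.38, and *Dpp4*, the peptidase CD26, at 254 and 261 against 2.50 and 1.81. *Kmo*, an enzyme of tryptophan breakdown, stood at 267 and 360 against 4.14 and 3.06. *Cbfa2t3*, a corepressor linked to cDC1 development, stood at 384 and 433 against 14.98 and 12.97. *Zbtb46*, a factor of all conventional dendritic cells, stood at 177 and 115, with macrophage cells at 0 because they were chosen to lack it. Over all selected cells each of these lay within 2-fold between the pools. The same was not so among *Xcr1*-positive cells, where *Kmo* stood at 147 and 365 CPM (1.31 [0.60, 2.07]; 0.99 without the largest cell) and *Zbtb46* at 200 and 88.6 (-1.18 [-2.13, -0.27]). *Timd4*, a receptor for phosphatidylserine, stood at 197 and 38.3 CPM and *Klrd1* at 247 and 76.7. One cell held 30.4% of the *Timd4* UMIs, and the log2 ratio was -2.36, or -1.94 among *Xcr1*-positive cells. Without the largest cell these were -1.81 and -1.28. For *Klrd1* the log2 ratio was -1.69, and -0.07 among *Xcr1*-positive cells. Its direction turned with at least 4 marker genes (1.31) and with at least 3 *Irf8* UMIs (1.35). The others named were *Gcsam*, *Gpr141b*, *Zfp366*, *Serpinb6b*, *H2-Oa*, *Ly75*, *H2-Ob*, *Gm36723*, *Plekha5*, *Kit*, *Ifi205* and *Tbc1d8*.

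Genes of antigen presentation and the cytoskeleton were among those with the most UMIs. *Cd74*, the invariant chain, stood at 13737 CPM in control and 13575 in telmisartan selected cells, against 5049 and 3574 in macrophage cells. *Cst3*, the protease inhibitor cystatin C, stood at 15675 and 14939 against 1706 and 1613. *H2-Ab1*, an MHC class II chain, stood at 11353 and 11137 against 2923 and 2076. The pools were close for each of these. The remaining genes among the 15 with the highest CPM were *Actb*, *Tmsb4x*, *H2-Aa*, *H2-Eb1*, *Actg1*, *Psap*, *Ptma*, *Cfl1*, *Eef1a1*, *B2m*, *Tpt1* and *Malat1*.

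Marker lists of other cell types showed what else the selected cells carried, and the part of those transcripts in the results was not tested. The list of type 2 dendritic cells was detected at 6 of 6 genes, at 1691 CPM in control and 636 in telmisartan (log2 ratio -1.41 [-1.67, -1.16]). Its most abundant genes were *Mgl2* (366 UMIs) in control and *Klf4* (88 UMIs) in telmisartan. In *Xcr1*-positive cells the same sum was 320 and 656 CPM, a log2 ratio of 1.04 (0.72 without the largest cell), and among *Xcr1*-negative cells 3060 and 580, or -2.40. The macrophage list was detected at 13 of 13 genes, at 2071 and 2077 CPM, with *Lyz2* on top at 292 and 192 UMIs and macrophage cells at 23995 and 23660. With *Xcr1*-negative cells left out, it was 1001 and 2053 CPM (log2 ratio 1.04). A single telmisartan cell held 43.0% of that list's UMIs, and without it the log2 ratio was -0.15 [-0.48, 0.18], and -0.73 over all selected cells. Most selected cells thus held little macrophage RNA, with a median of 0.0974% and 0.0901% of UMIs, against 2.15% and 2.11% in macrophage cells and 0.380% and 0.119% in T cells.

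The monocyte list was detected at 6 of 6 genes in control and 5 of 6 in telmisartan, at 580 and 759 CPM. *Plac8* was its most abundant gene, at 106 and 94 UMIs, and *Chil3* was at 0 in telmisartan. The mature dendritic cell list stood at 137 and 203 CPM, at 5 and 6 of 7 genes, a log2 ratio of 0.57 [-0.04, 1.20]. One telmisartan cell held 43.6% of its UMIs, and without it the value was -1.55 [-2.61, -0.59]. It was -1.28 [-2.55, -0.11] among *Xcr1*-positive cells, or 0.34 [-1.26, 2.09] without the control cell that held 44.8% of the UMIs there, so its direction turned on single cells. *Ccl22* led it in control with 32 UMIs, where *Fscn1* and *Nudt17* were at 0, and *Fscn1* led it in telmisartan with 20, all from 1 cell, where *Socs2* was at 0. Lists of lymphoid and tissue cells were close to empty. The tumor epithelium list gave 36 and 5 UMIs, of which *Cdh1* gave 30 and 5 and *Epcam* 6 and 0, with *Krt8*, *Krt18* and *Krt19* at 0. The endothelium list gave 10 and 11 UMIs, mostly *Kdr* (7 and 8), with *Cdh5* at 0 in control. The plasmacytoid list gave 2 and 5 UMIs, with *Klk1* and *Cox6a2* at 0. The NK list gave 7 and 7 UMIs, all from *Klre1*. The T cell list gave 2 and 0 UMIs, the fibroblast list 2 and 0 (*Col1a1*), and the neutrophil list 1 and 1, with *S100a8*, *S100a9* and *Retnlg* at 0. The T cell list holds the CD3 genes, which the rule limited, so its count was partly fixed by the selection. The B cell and mast cell lists gave 0 in both pools.

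Across all genes, the selected cells of the pools were centered on equal levels, and a small share of genes differed 2-fold. Of 4401 genes with at least 20 UMIs in the selected cells of both pools together, 229 (5.2%) were at least 2-fold higher in telmisartan and 265 (6.02%) at least 2-fold lower. The median log2 ratio was 0.03, with quartiles of -0.33 and 0.38, and it was 0.16 when levels were scaled per cell. Within the *Xcr1*-positive cells 3000 genes passed, of which 218 (7.27%) were at least 2-fold higher and 147 (4.9%) lower. Counts of list genes below are read against these shares. In macrophage cells, with far more UMIs and 14420 genes, the shares were 2.73% and 1.27%.

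The 12 largest rises and 12 largest falls were taken among 1934 genes with at least 50 UMIs, a UMI in at least 10 selected cells and no cell with over 20% of the UMIs. Among these, *Nr4a2* was the largest rise and *Gbp2* the largest fall. With 2 marker genes enough for selection, 3 of the 24 genes stayed past 2-fold (1 fall and 2 rises). With cells thinned to 2000 UMIs, 14 of 23 kept their direction and 8 stayed past 2-fold. Of the rises, 9 of 12 were also at least 2-fold higher among *Xcr1*-positive cells, and 5 (*Nr4a2*, *Trib1*, *Tent5c*, *Nfil3* and *Sik1*) were so without the largest cell of each gene. Of the falls, 3 of 12 (*Gbp2*, *Kit* and *Fcho2*) were at least 2-fold lower there. In control, 11 of the 12 falls stood higher in *Xcr1*-negative than in *Xcr1*-positive cells, *Kit* being the exception. Most of the falls were thus genes with higher levels in the *Xcr1*-negative control cells, most of which went against the label.

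*Nr4a2*, an orphan nuclear receptor induced by acute signals (chr2:57106830-57124003), had 19 UMIs in 7 control cells and 96 in 17 telmisartan cells. That was 63.4 and 368 CPM, a log2 ratio of 2.54 [1.82, 3.33]. Among *Xcr1*-positive cells it had 3 UMIs in 1 cell and 43 in 11 cells, or 3.48 [1.84, 5.82], and 3.10 [1.42, 5.46] without the largest cell. *Nr4a2* was thus the largest of the 12 rises, with or without the *Xcr1*-negative cells. It was higher in the telmisartan pool of other cells as well, at 152 and 298 CPM in macrophage cells (0.97 [0.92, 1.02]), 132 and 614 in *Cd209a* dendritic cells, 153 and 413 in *Ccr7* dendritic cells (each with at least 2 UMIs of that gene) and 122 and 343 in T cells. *Pmaip1*, which encodes the cell death factor NOXA, stood at 213 and 529 CPM (1.31 [0.87, 1.76]; 0.93 among *Xcr1*-positive cells, 0.41 [-0.25, 1.10] without the largest of them). *Nfil3*, a factor needed early in cDC1 development, stood at 56.7 and 134 (1.24 [0.37, 2.17]), and at 1.84 [0.42, 3.60] among *Xcr1*-positive cells, or 1.32 [-0.21, 3.14] without the largest of them. *Trib1*, a pseudokinase that directs protein breakdown, stood at 83.4 and 234 (1.49; 1.68 among *Xcr1*-positive cells). These 4 genes were higher in the telmisartan pool in both sets of cells. Among *Xcr1*-positive cells without the largest cell, *Pmaip1* and *Nfil3* were not resolved. *Psmd2*, a proteasome subunit, stood at 50.03 and 142 CPM, *Mllt3*, a chromatin reader, at 70.0 and 188, and *Tgoln1*, a Golgi protein, at 53.4 and 134. *Tent5c*, a poly(A) polymerase, stood at 70.0 and 169, *Sik1*, a kinase, at 66.7 and 153, and *Fam107b* at 53.4 and 130. *Trim35*, a ubiquitin ligase, stood at 96.7 and 222, with a log2 ratio of 1.20 that was 0.45 among *Xcr1*-positive cells. Its direction also turned with cells thinned. *Mcm6*, a helicase subunit of DNA replication, stood at 56.7 and 130, with 1.20 [0.32, 2.13] over all selected cells, 0.71 [-0.44, 1.96] among *Xcr1*-positive cells, and 0.09 without the largest of them.

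*Gbp2*, an interferon-induced GTPase (chr3:142620602-142638008), had 71 UMIs in control and 4 in telmisartan, at 237 and 15.3 CPM (log2 ratio -3.95 [-5.86, -2.53]). In *Xcr1*-positive cells it had 10 and 2 UMIs, or -2.68 [-5.91, -0.45], and -2.16 [-5.50, 0.32] without the largest cell. *Kit*, the receptor for stem cell factor (chr5:75574916-75656722), had 101 UMIs in 27 control cells and 24 in 12 telmisartan cells. That was 337 and 92.0 CPM, a log2 ratio of -1.87 [-2.58, -1.22], and 354 and 109 CPM, or -1.69 [-2.50, -0.94], among *Xcr1*-positive cells. *Fcho2*, which bends membrane in endocytosis, stood at 187 and 57.5 CPM (-1.70; -1.07 [-2.30, 0.09] among *Xcr1*-positive cells). Of these 3, *Kit* was thus lower in both sets of cells with or without its largest cell (-1.47 [-2.31, -0.67] among *Xcr1*-positive cells), while *Gbp2* and *Fcho2* were not resolved there. *Gbp2* stood higher in the telmisartan pool of *Cd209a* dendritic cells (149 and 430 CPM) and *Ccr7* dendritic cells (328 and 386), and lower in that of macrophage cells (-0.50). *Mgl2* stood at 1221 and 165 CPM, a log2 ratio of -2.89 [-3.38, -2.43], and of 0.02 [-0.70, 0.76] among *Xcr1*-positive cells. One telmisartan cell, which was also the highest in macrophage RNA, held 37.7% of the *Mgl2* UMIs of those cells, and without it the value was -1.45 [-2.52, -0.47]. *Mgl2* was lower in the telmisartan pool of macrophage cells too (-1.29 [-1.33, -1.24]), as in *Cd209a* dendritic cells (3347 and 1278 CPM) and *Ccr7* dendritic cells (1091 and 373). *Creb5*, a transcription factor, stood at 234 and 34.5 CPM, and *S100a4*, a calcium-binding protein, at 390 and 92.0. Their log2 ratios of -2.76 and -2.08 became 2.45 [-0.51, 7.94] and 1.34 [-0.35, 3.42] among *Xcr1*-positive cells, at 1 and 7 UMIs of *Creb5* (0.75 without the cell that held 62.5% of them) and 4 and 13 of *S100a4*. *Ccr1*, a chemokine receptor, went from -3.09 to 0.64 [-2.16, 4.11] at 2 and 4 UMIs, *Ly6a*, a surface protein induced by interferon, from -1.92 to 0.39 [-0.32, 1.12], and *AA467197* from -1.89 to 0.29 [-0.68, 1.29]. *Ms4a4c* went from -1.83 to 0.10 [-1.35, 1.62] and *Zbtb18*, a repressor, from -1.80 to 0.23 [-1.18, 1.72]. *Il2rg*, the shared cytokine receptor chain, had -1.71 and -0.84. For 8 of the falls the ratio was thus above 0 once *Xcr1*-negative cells were left out, but all 8 intervals reached below 0, so no direction was resolved there. Without the largest cell of each gene, *Mgl2*, *Ly6a* (-0.15), *AA467197* (-0.44) and *Ms4a4c* (-0.41) were below 0 again, and *Ccr1* was left with 2 control UMIs and 0 in telmisartan.

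**Figure D2:**
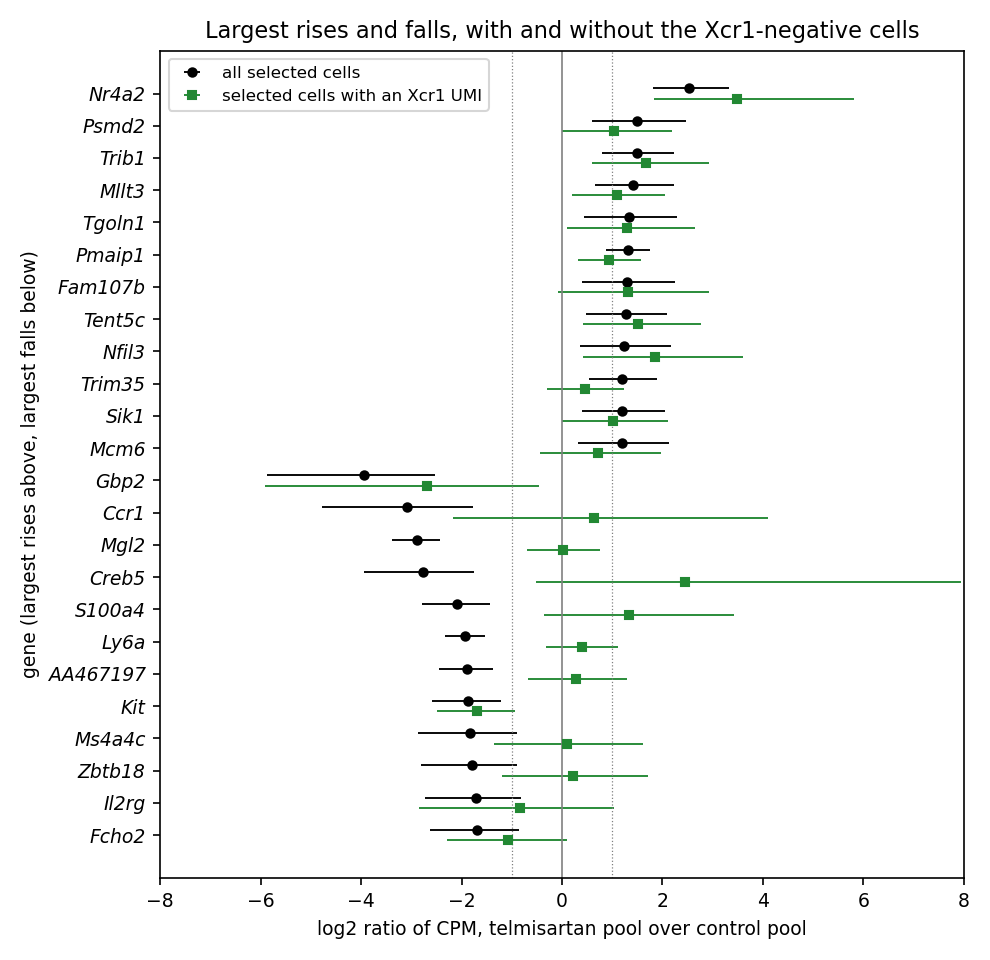
Log2 ratio of CPM, telmisartan over control (x axis, drawn to 8 on either side), for the 12 largest rises and 12 largest falls, in all selected cells (black) and in *Xcr1*-positive cells (green), with 95% counting intervals and dotted lines at 2-fold. *Nr4a2* (2.54 and 3.48) and *Kit* (-1.87 and -1.69) kept their side, and *Mgl2* stood at -2.89 and 0.02, or at -1.45 in *Xcr1*-positive cells without 1 cell.

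Lineage factors as a list were level between the pools. Their sum stood at 4032 CPM in both (log2 ratio 0.00 [-0.12, 0.12]), with 2 of 12 tested genes at least 2-fold higher and 0 lower, and it was -0.24 among *Xcr1*-positive cells. *Relb*, a factor of maturation and of dendritic cell development, was at 1.56 [0.24, 3.06], beside *Nfil3*. Among *Xcr1*-positive cells *Relb* had 2 and 10 UMIs, at 1.96 [-0.27, 5.2], and was not resolved. *Irf8* stood at 797 and 1246 CPM (0.64), and at 1442 and 1339 (-0.11 [-0.37, 0.16]) among *Xcr1*-positive cells. *Id2*, a repressor that cDC1 need, stood at 1604 and 935 (-0.78 [-1.01, -0.55]) and at 2049 and 953 (-1.10 [-1.38, -0.84]) among *Xcr1*-positive cells. Without the largest of those cells *Id2* was at -0.92 [-1.21, -0.63]. *Zbtb46* had a log2 ratio of -0.62, and -1.18 among *Xcr1*-positive cells. *Klf4*, a factor that type 2 dendritic cells use, was at 0.05 and at 1.82 [0.94, 2.82] among *Xcr1*-positive cells, or 1.36 [0.42, 2.38] without the largest of them. The even sum thus held lineage factors that differed in opposite directions.

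Genes of cross-presentation also summed to near equal levels, at 3022 and 2997 CPM (log2 ratio -0.01 [-0.15, 0.13]), with 0 of 8 tested genes at least 2-fold higher and 1 lower. With *Xcr1*-negative cells left out, the sum was lower in telmisartan, at -0.34 [-0.50, -0.17]. *Wdfy4*, which cDC1 need to cross-present material of cells, stood at 814 and 870 CPM, and at 1282 and 875 among *Xcr1*-positive cells (-0.55). *Cybb*, the catalytic chain of the phagosome oxidase, was the gene below 2-fold, at 160 and 57.5 CPM (-1.48), and at 0.49 [-1.24, 2.42] among *Xcr1*-positive cells, or -0.98 [-3.67, 1.38] without the telmisartan cell that held 42.9% of the UMIs.

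MHC class I and its loading machinery differed little. The sum of 17 genes stood at 12753 and 12023 CPM (log2 ratio -0.09 [-0.15, -0.02]), and 1 of 17 was at least 2-fold lower, with none higher. Within the *Xcr1*-positive cells it stood at 11260 and 11799 (0.07 [-0.02, 0.16]), and in macrophage cells the log2 ratio was 0.02. *B2m*, the light chain of class I, stood at 3942 and 3461 CPM (-0.19; 0.25 among *Xcr1*-positive cells). The heavy chain *H2-K1* stood at 1381 and 977 (-0.50; -0.12 among *Xcr1*-positive cells) and *H2-D1* at 2258 and 2004, with an uncertain split of reads between such similar genes. No class I chain thus differed 2-fold. The chaperones *Pdia3* and *Canx*, which fold class I, stood at 474 and 770 (0.70) and at 367 and 517 CPM (0.50). *Nlrc5*, the transactivator of class I genes, was the gene below 2-fold, at 143 and 57.5 CPM (-1.32 [-2.27, -0.44]). Among *Xcr1*-positive cells *Nlrc5* was at -1.58 [-2.89, -0.39], and at -1.21 [-2.60, 0.10] without the cell that held 23.3% of its UMIs.

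MHC class II was close to level in the selected cells and lower in macrophage cells of the telmisartan pool. The 12 of 13 listed genes in the table summed to 48012 and 45603 CPM (log2 ratio -0.07 [-0.11, -0.04]), none past 2-fold, and the sum was -0.15 among *Xcr1*-positive cells. In macrophage cells it stood at 17137 and 12903, or -0.41. The difference between these cell classes was not tested. *Ciita*, the transactivator of class II genes, stood at 544 and 345 CPM (-0.66), at -0.90 [-1.39, -0.43] among *Xcr1*-positive cells and at -1.09 in macrophage cells.

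Costimulation and checkpoint genes were slightly lower in sum over all selected cells, while the sum of maturation genes was higher, mostly through *Cd83*. The first list stood at 1457 and 1188 CPM (log2 ratio -0.29 [-0.51, -0.08]), or -0.13 [-0.36, 0.09] without the largest cell and 0.03 among *Xcr1*-positive cells, with 1 of 10 tested genes at least 2-fold higher and 2 lower. *Tnfsf9*, the ligand of 4-1BB, was the higher one, at 43.4 and 130 CPM (1.59, and 2.02 among *Xcr1*-positive cells, 1.34 [-0.19, 3.16] without the largest of them). *Cd274*, which encodes PD-L1, stood at 163 and 72.8 (-1.17), and at -1.01 [-2.62, 0.49] among *Xcr1*-positive cells. *Pdcd1lg2*, which encodes PD-L2, had -1.01 and, among *Xcr1*-positive cells, -0.04. Of the 10, 7 were lower and 3 higher, with a median log2 ratio of -0.33. The costimulatory ligands *Cd86* and *Cd80* stood at 344 and 264 CPM and at 147 and 95.8, and *Tnfsf4* and *Cd70* were at 0 in both pools. The checkpoint receptor *Havcr2*, which encodes TIM-3, stood at 290 and 161.

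The maturation list stood at 1204 and 1958 CPM (log2 ratio 0.70 [0.50, 0.90]; 0.63 [0.34, 0.92] among *Xcr1*-positive cells), with 3 of 10 tested genes at least 2-fold higher and 0 lower. *Cd83*, a surface protein of activated dendritic cells (chr13:43784775-43803132), carried most of the difference, at 480 and 1031 CPM (1.10 [0.80, 1.40]). In *Xcr1*-positive cells *Cd83* stood at 347 and 927 CPM (1.42 [0.96, 1.89]), and in macrophage cells its log2 ratio was 0.53. The other 2 were *Relb* and *Fscn1*, an actin bundler of mature dendritic cells, whose 20 telmisartan UMIs were all in 1 cell. The list without its largest cell was at 0.49. Of 6 genes tested among *Xcr1*-positive cells, 1 was at least 2-fold higher and 1 lower, with a median log2 ratio of -0.02, so the genes other than *Cd83* showed no common direction there.

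Among cytokines and chemokines, *Ccl3* and *Ccl4* were higher in the telmisartan pool, and *Cxcl9* and *Ccl17* were lower over all selected cells. Of 11 tested genes, 3 were at least 2-fold higher and 3 lower. The sum stood at 3492 and 4082 CPM (log2 ratio 0.23 [0.10, 0.35], or 0.38 without the largest cell). Its sign turned with 90% of tag reads on 1 tag (-0.29) and with cells thinned to 2000 UMIs (-0.44). It stood at 1802 and 4293 among *Xcr1*-positive cells (1.25 [1.05, 1.46]; 1.14 without the largest cell). The neighboring genes *Ccl3* (chr11:83647844-83649355) and *Ccl4* (chr11:83662584-83664683) encode inflammatory chemokines. *Ccl3* had 11 and 79 UMIs (3.04 [2.13, 4.10]), and 6 and 66 among *Xcr1*-positive cells (3.10 [1.90, 4.599]). One cell held 41.7% of those UMIs, and without it the log2 ratio was 2.34 [1.08, 3.88]. *Ccl4* stood at 157 and 1177 CPM (2.91 [2.46, 3.38]) and at 187 and 1313 among *Xcr1*-positive cells (2.81 [2.25, 3.43]; 2.43 without the largest cell). In macrophage cells these genes had log2 ratios of 0.01 and 0.50. *Ccl3* and *Ccl4* were thus higher in the telmisartan pool of selected cells with or without the *Xcr1*-negative ones.

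*Il1b*, the inflammatory cytokine, stood at 1121 and 1820 CPM (log2 ratio 0.70). With *Xcr1*-negative cells left out, it had a UMI in 9 of 15 and 16 of 16 cells, at 507 and 1875 CPM (1.89 [1.53, 2.26]; 1.65 without the largest cell). *Il12b*, the chain of interleukin 12 known from cDC1, had a UMI in 1 control and 3 telmisartan cells, at 30.02 and 115 CPM, and 1 cell held 46.2% of its UMIs (0.70 without it). *Il12a*, *Il27*, *Il6* and *Il10* were at 0 in both pools. *Cxcl9*, a chemokine for T cells that interferon gamma induces (chr5:92321347-92328079), stood at 630 CPM in 15 control cells and 34.5 in 4 telmisartan cells (-4.19 [-5.34, -3.24]). Within the *Xcr1*-positive cells it was at -2.68 [-3.99, -1.56], but 1 cell held 56.3% of the UMIs, and without it the value was -1.28 [-2.75, 0.10]. In macrophage cells *Cxcl9* was at -0.96. *Cxcl10*, which acts on the same receptor, was at -3.24, and at -0.12 without the cell that held 81.7% of its UMIs. It had 2 and 5 UMIs in *Xcr1*-positive cells. *Ccl17*, a chemokine for CCR4, stood at 737 and 72.8 CPM (-3.34; -1.63 [-2.74, -0.62] among *Xcr1*-positive cells, and -0.997 [-2.18, 0.14] without the largest of them). The lower levels of these chemokines thus rested in large part on single cells or on *Xcr1*-negative cells.

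Response genes of interferon gamma were lower in telmisartan selected cells, while those of type I interferon had no settled direction. The interferon gamma list stood at 2558 and 1073 CPM (log2 ratio -1.25 [-1.46, -1.05]), with 4 of 9 tested genes at least 2-fold lower (*Gbp2*, *Igtp*, *Cd274* and *Cxcl9*) and 0 higher. Among *Xcr1*-positive cells it was at -0.66 [-0.95, -0.38], or -0.41 without the largest cell, with 1 of 5 tested genes lower. With 2 marker genes enough for selection it was at -0.32. In macrophage cells it was at -0.46, and in *Cd209a* dendritic cells at 0.31 [0.10, 0.52]. The type I list stood at 630 and 579 (-0.12 [-0.44, 0.19]; -0.12 among *Xcr1*-positive cells), with 1 of 7 tested genes lower (*Oasl2*) and 0 higher, and it was at 0.64 in macrophage cells. Without its largest cell, a control cell, it was at 0.21 [-0.13, 0.55], and at 0.67 [0.18, 1.18] among *Xcr1*-positive cells.

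Receptors for growth factors and homing were lower in sum, at 2678 and 1870 CPM (log2 ratio -0.52 [-0.68, -0.35]). Among *Xcr1*-positive cells the sum was at -0.24 [-0.46, -0.03], or -0.21 [-0.44, 0.02] without the largest of them. Of 12 tested genes, 3 were at least 2-fold lower and 1 higher. The lower ones were *Kit*, *Csf2rb2* (-1.31, with reads split between it and its close paralog *Csf2rb*) and *Ifngr1*, a receptor chain for interferon gamma. *Ifngr1* stood at 277 and 134 CPM (-1.04), and at -1.26 [-2.07, -0.47] among *Xcr1*-positive cells, or -0.89 [-1.76, -0.04] without the largest of them. *Ccr2*, the receptor that brings monocytes and dendritic cell precursors into tissue, was the higher one, at 133 and 307 CPM (1.20; 0.57 among *Xcr1*-positive cells). Innate sensors stood at 877 and 1023 CPM (0.22 [-0.03, 0.47]; 0.05 among *Xcr1*-positive cells), with 0 of 8 tested genes past 2-fold either way and *Tlr7* at 0. *Kit* and *Ifngr1* were thus lower in both sets of cells.

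Genes of DNA replication were higher in telmisartan selected cells, while the share of cycling cells was not detectably different. The S phase list stood at 747 and 1556 CPM (log2 ratio 1.06 [0.82, 1.30], or 0.80 without the largest cell), with all 12 tested genes higher and 6 of them at least 2-fold. In *Xcr1*-positive cells it was at 0.52 [0.23, 0.81], and at 0.22 [-0.08, 0.53] without the largest cell. With 2 marker genes enough for selection the list was at 0.19. *Pcna*, the replication clamp, stood at 120 and 353 CPM (1.55; 1.15 among *Xcr1*-positive cells). The G2/M list stood at 2048 and 2445 (0.26 [0.09, 0.42]; -0.08 over all selected cells but the largest contributor; -0.01 among *Xcr1*-positive cells, and -0.36 there without the largest cell), with 1 of 15 tested genes 2-fold higher. *Mki67*, the proliferation marker, stood at 357 and 563 CPM and *Top2a*, a topoisomerase of dividing cells, at 507 and 533. At least 5 G2/M UMIs were found in 10 of 29 control cells (34.5% [17.9, 54.3]) and 9 of 23 telmisartan cells (39.1% [19.7, 61.5]). Thinned to 3000 UMIs, the shares were 31.0% and 34.8%, and among *Xcr1*-positive cells 6 of 15 and 8 of 16 met the limit. Macrophage cells had 17.8% and 16%, or 11.1% and 12% thinned. A difference in the share of cycling cells was thus not detectable at this depth.

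Immediate early genes, which cells switch on within minutes of a stimulus or of handling, were higher in telmisartan, with a larger ratio among *Xcr1*-positive cells. The list stood at 8074 and 10037 CPM (log2 ratio 0.31 [0.23, 0.39], or 0.54 without the largest cell), with 4 of 15 tested genes at least 2-fold higher and 0 lower, and at 0.10 when cells needed 90% of tag reads on 1 tag. With *Xcr1*-negative cells left out, it stood at 3945 and 9830 (1.32 [1.18, 1.45]; 1.21 [1.08, 1.35] without the largest cell), with 11 of 13 tested genes at least 2-fold higher. The median *Xcr1*-positive cell gave 0.348% of its UMIs to the list in control and 0.803% in telmisartan. *Xcr1*-negative cells stood at 12198 and 10614 (-0.20), and macrophage cells at -0.01. The log2 ratio of the list was thus 1.32 among *Xcr1*-positive cells and -0.20 among *Xcr1*-negative ones. The *Xcr1*-negative cells of the pools were unlike, with at least 3 *Irf8* UMIs in 1 of 14 control and 6 of 7 telmisartan cells. The difference between cell sets was not tested. Within the *Xcr1*-positive cells *Fos* stood at 1088 and 2751 CPM (1.34 [1.08, 1.60]), *Fosb* at 220 and 834 (1.92) and *Egr1* at 13.4 and 135 (3.34), each a factor of early transcription. *Dusp1*, a phosphatase that damps MAP kinases, stood at 167 and 682 (2.03), and *Zfp36*, which speeds the decay of cytokine mRNA, at 694 and 1829 (1.40). *Nr4a1*, a relative of *Nr4a2*, stood at 167 and 625 (1.91), with a UMI in 11 of 15 and 14 of 16 cells. *Jun*, *Atf3*, *Ier3* and *Nr4a3* were at 1.33, 1.81, 1.57 and 1.53. Without the largest cell *Ier3* was at 1.22 [-0.34, 3.04] and *Nr4a3* at 1.01 [-0.33, 2.53]. *Btg2* was below 2-fold, at 0.70 [0.24, 1.19]. *Junb* was at 0.24 [-0.24, 0.74], or -0.03 without the largest cell. The named early genes were thus higher in the telmisartan pool, except that *Junb* was not resolved, nor *Ier3* and *Nr4a3* without the largest cell. A part of sample handling in these values was not tested.

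Heat shock genes stood at 9208 and 10041 CPM (log2 ratio 0.12 [0.05, 0.20]; 0.20 among *Xcr1*-positive cells), with 1 of 10 tested genes at least 2-fold lower and 0 higher, so they were slightly higher in telmisartan in sum. *Dnajb1*, a cochaperone, was the lower one, at 254 and 49.8 (-2.35; -1.94 among *Xcr1*-positive cells), and 1 cell held 32.6% of its UMIs (-1.75 without it). *Hspa8*, a constitutive chaperone, stood at 2331 and 3361 (0.53). Hypoxia and glycolysis genes were close to level, at 1734 and 1813 CPM (0.06; 0.29 [0.03, 0.55] among *Xcr1*-positive cells, and 0.18 without the largest of them), with 1 of 9 tested genes lower (*Hilpda*, -1.42; 1.81 [-0.46, 5.06] among *Xcr1*-positive cells, and 0.75 there without the largest cell) and *Adm* at 0. Receptors for telmisartan and other genes of the angiotensin system could not be compared: *Agtr1a*, *Agtr1b*, *Agtr2*, *Ace*, *Agt* and *Mas1* were at 0 in both pools of selected cells, *Pparg* had 1 and 1 UMI, and *Rxra* 3 and 0.

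**Figure D3:**
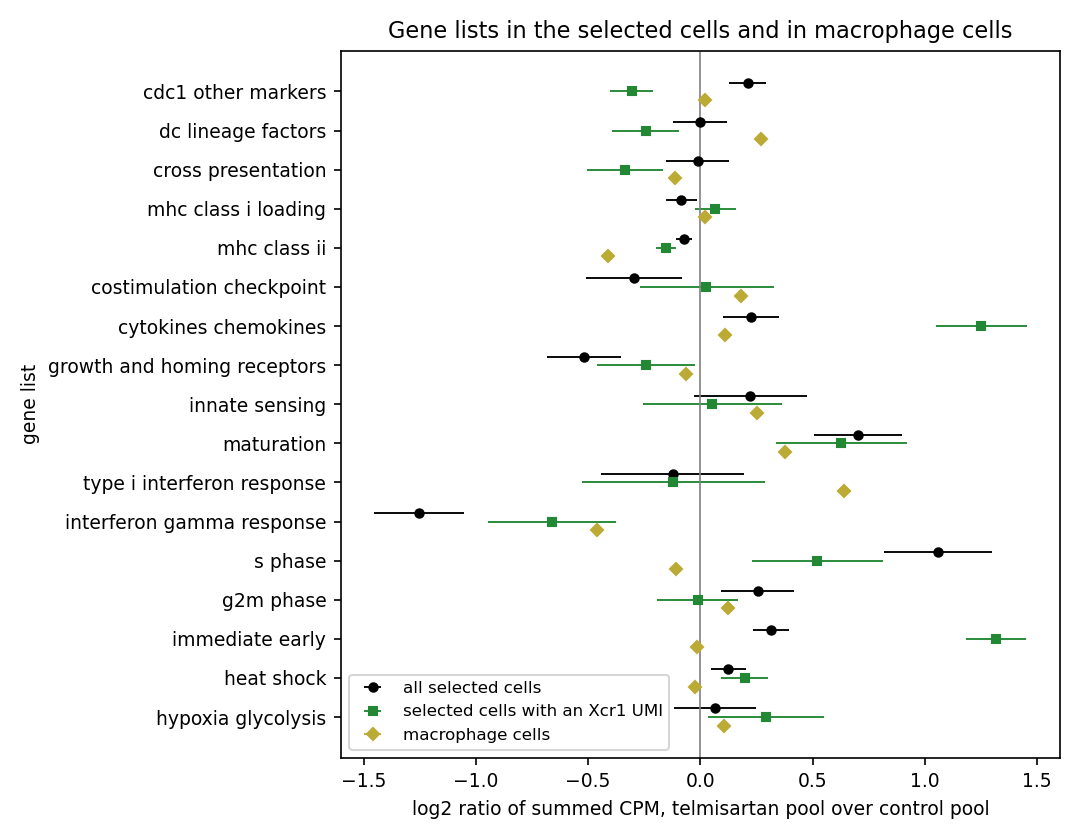
Log2 ratio of summed CPM, telmisartan over control (x axis), with 95% counting intervals, for 17 gene lists in all selected cells, in *Xcr1*-positive cells and in macrophage cells. Immediate early genes stood at 0.31, 1.32 and -0.01 in these classes, and the interferon gamma list at -1.25, -0.66 and -0.46.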

How the data were processed

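UMI counts, as deposited, came from the authors' run of the BD Rhapsody WTA Analysis Pipeline 1.11 on GRCm38 with GENCODE M19 genes; coordinates were from GENCODE M21. Of 20726 putative cells and 27031 genes, cells with at least 10 Sample Tag reads and 75% of them on 1 tag were assigned to a pool. Cells needed at least 150 genes, at most 5000 genes and at most 20% mitochondrial UMIs. Cells below the tag share (1580) or with under 10 tag reads (186) were left out. Per pool, UMIs of the selected cells were added up and given as CPM; genes with at least 20 UMIs counted as tested. Clopper-Pearson, Poisson and exact conditional intervals were 95%; a pool at 0 was set to 3 counts. With 1 pool per group no test was run.

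Named genes were any gene of the lists, the 12 largest rises and 12 largest falls, the 20 genes highest over macrophage cells, and the 15 highest in CPM. The members and lists were chosen with earlier results of these data known. Alternatives covered the number of marker genes, tag share, gene and mitochondrial limits, gene filter, doublet removal by Scrublet, macrophage RNA, thinning to 2000 UMIs, scaling and TMM; 3 were added after seeing the data. Cells split between tags were left out, but doublets of 1 pool, or with over 75% of reads on 1 tag, could stay. The log2 ratio and its interval were tested on simulated summed counts, drawn without spread between cells. Python 3.11.15, numpy 2.4.6, scipy 1.17.1, pandas 2.3.3, scanpy 1.11.5, R 4.3.3 and edgeR 4.0.16 were used.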

Additional observations from a re-analysis of the deposited data

Results flagged for a closer look

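For 5 of the 24 named rises and falls and 1 of the pathway lists, a ratio past 2-fold in the selected cells stood beside one of the opposite sign in macrophage cells with an interval clear of 0, and the difference was not tested. Marker lists of cell types were not included. *Psmd2* had a log2 ratio of 1.503 in the selected cells and -0.17 [-0.24, -0.11] in macrophage cells. *Trim35* had 1.20 against -0.23 [-0.36, -0.11], and *Mcm6* 1.20 against -0.27 [-0.37, -0.18]. The S phase list had 1.06 against -0.11 [-0.14, -0.08]. *S100a4* had -2.08 against 0.06 [0.03, 0.08], and *Ms4a4c* -1.83 against 0.72 [0.65, 0.80]. Among *Xcr1*-positive cells *S100a4* was at 1.34 [-0.35, 3.42] and *Ms4a4c* at 0.10 [-1.35, 1.62], while *Psmd2* was at 1.04 and *Trim35* at 0.45. Without the largest of those cells *Mcm6* was at 0.09 and the S phase list at 0.22. Among cells whose Sample Tag reads were split between tags, which no comparison used, 9 of the 941 within the limits met the marker rule, a share of 0.956% [0.438, 1.81] beside 0.525% [0.392, 0.688] of kept cells.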

How the results depend on the processing

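All 24 named rises and falls kept their direction with 90% of tag reads on 1 tag, other gene limits, a mitochondrial limit of 10%, Scrublet, without the 7 control and 6 telmisartan cells highest in macrophage RNA, under each scaling and TMM, and without each gene's largest cell. With at least 2 marker genes 23 of 24 kept their direction but just 3 stayed past 2-fold (1 fall, 2 rises), and the percent of genes 2-fold higher and lower was 2.715 and 4.52 (185 and 308 genes). Direction was kept by 23 with at least 4 marker genes (19 past 2-fold), 20 with at least 3 *Irf8* UMIs (13), 16 with an *Xcr1* UMI (12) and 14 of 23 thinned (8). The use of cells with an *Xcr1* UMI or at least 3 *Irf8* UMIs, and leaving out the largest cell, were chosen after seeing the data. The share ratio was 0.76 with at least 3 *Irf8* UMIs and -0.96 with 90% of tag reads on 1 tag. The median over genes was -0.028 with at least 2 marker genes, -0.014 with 90% tags, 0.057 thinned to 2000 UMIs, 0.16 per cell, -0.012 with TMM and 0.063 with 1 UMI in each pool. The percent of genes higher was 5.35 with 90% tags (137 genes), 6.82 thinned (30), 1.76 with 50 UMIs (35) and 12.65 with 1 UMI in each pool (1182). The percent lower was 6.14 thinned (27), 3.92 with 50 UMIs (78), 11.9 with 1 UMI in each pool (1116), 4.90 with *Xcr1* (147) and 4.50 with *Irf8* (144). The number of genes tested differed between these settings. The ratio of cycling shares ranged from -0.92 to 0.32 over the alternatives, within the interval of its value of 0.18. The MHC class I list was at -0.015 with at least 2 marker genes, -0.24 with 90% tags, 0.33 thinned, 0.049 per cell, 0.0081 as a mean over cells, 0.067 with *Xcr1* and 0.037 with *Irf8*. Thinned, *Mllt3* was at -1.68, *Tgoln1* at -0.10, *Trim35* at -0.32, *Ccr1* at 0.90, *S100a4* at 2.22, *Ly6a* at 1.78, *AA467197* at 3.22, *Ms4a4c* at 0.64 and *Il2rg* at 0.90, and *Zbtb18* gave no value. With *Xcr1*, *Ccr1* was at 0.64, *Mgl2* at 0.021, *Creb5* at 2.45, *S100a4* at 1.34, *Ly6a* at 0.39, *AA467197* at 0.29, *Ms4a4c* at 0.10 and *Zbtb18* at 0.23. With *Irf8*, *Creb5* was at 0.82, *S100a4* at 1.82, *Zbtb18* at 0.13 and *Il2rg* at 1.113. *S100a4* was at 0.023 with at least 4 marker genes, and *Ms4a4c* at 0.27 with at least 2. Of the 17 pathway lists recomputed under the alternatives, none past 2-fold changed sign, but cytokines were at -0.29 with 90% tags and -0.44 thinned. The causes were not tested. With 23 and 29 cells of 1 pool each, differences between mice were not measured.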
